A study of Mus musculus with 30 samples.

Results

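A set of 133 genes, of 23284 in the deposited table, had high RNA levels in mouse embryonic stem (ES) cells, low levels in the embryoid bodies (EBs) of the following days, and high levels again at day 4. EBs are the aggregates that ES cells form in suspension as they differentiate. The genes were chosen from their values: the mean of the 2 libraries of each day, plus 1, had to be at least 200 on day 0 and on day 4, and both had to be at least 3 times the lowest mean of days 1, 2 and 3. Of the 9695 genes with both levels at or above 200, 1.37% met that rule. The day means that chose the genes are therefore described without a test, and the choice fixes that both ends lie above the lowest day.

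The study followed differentiation into mesendoderm, the precursor of mesoderm and endoderm, and the part that the p53 family of transcription factors plays in it. RNA came from 14 samples. The 10 time course libraries, 2 on each of days 0, 1, 2, 3 and 4, were from wild-type E14Tg2a.IV cells (129/Ola background), which were kept before differentiation on gelatin in medium with serum and leukaemia inhibitory factor (LIF). The other 4 libraries were from day 4 EBs of C57BL/6J lines kept in N2B27 medium with LIF and the inhibitors PD0325901, which blocks MEK, and CHIR99021, which blocks GSK3. A wild-type Trp53+/+ line gave 2 of these. The remaining 2, called p53 family loss, came from Trp53-/- cells in which hairpin RNAs also targeted p63 and p73. The loss line thus differs from its control by the hairpins as well as by the deletion, and no other time point of either line was analysed here. Whether libraries of a group were grown as separate cultures is not given in the labels, so p-values measure only the spread between these samples, which may be technical.

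Some members encode proteins of the actin cytoskeleton and of cell attachment. The cofactor MRTF is held by actin monomers and is freed when these assemble into filaments, and with the serum response factor SRF it then switches on actin, tropomyosin, calponin and transgelin genes, while the cofactor YAP, which enters the nucleus of stretched cells, acts with TEAD proteins on genes such as Cyr61. Serum, growth factors and adhesion also switch on immediate early genes such as Fos and Jun. ES cells grow attached to a surface and EBs float.

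Values are normalised counts, that is read counts divided by 1 factor per library, and levels are compared only between samples of the same gene. The time course libraries held 20104644 to 39835808 reads and the genotype libraries 19104692 to 31580252. Summed ES cell markers were 3223 and 2996 CPM (reads scaled to a common library total) at day 0 and 825 and 751 at day 4, while summed streak and mesoderm markers were 18.6 and 11.2 at day 0 and 1878 and 1647 at day 4. Those sums go with the labels. Trp53 stood at 8339 and 11784 in the 2 Trp53+/+ libraries and at 866 and 802 in the 2 loss libraries. Trp73 stood at 219 and 297 against 48.0 and 52.5, and Trp63 was near 0 in all 4. In such bulk RNA, fewer cells that express a gene and less RNA per cell cannot be told apart.

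The lowest mean fell on day 1 for 63 members, on day 2 for 57 and on day 3 for 13. The lower of the 2 ends was 4.30 times the lowest mean in the median member, at least 5 times in 49 members and at least 10 times in 12. All 4 libraries of days 0 and 4 lay above both libraries of the lowest day in 127 members, and in 6 they overlapped. The rule asks for a 3-fold gap between the means of these libraries, so this separation largely follows from the choice of the genes. The level reached at day 4 was above day 0 in 72 members and below it in 61. It was within 2 times of day 0 in 90, over 2 times in 23 and below by more than 2 times in 20. By day 3 the mean was already at least 2 times the lowest in 84 members and at least 3 times in 44.

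**Figure D1:**
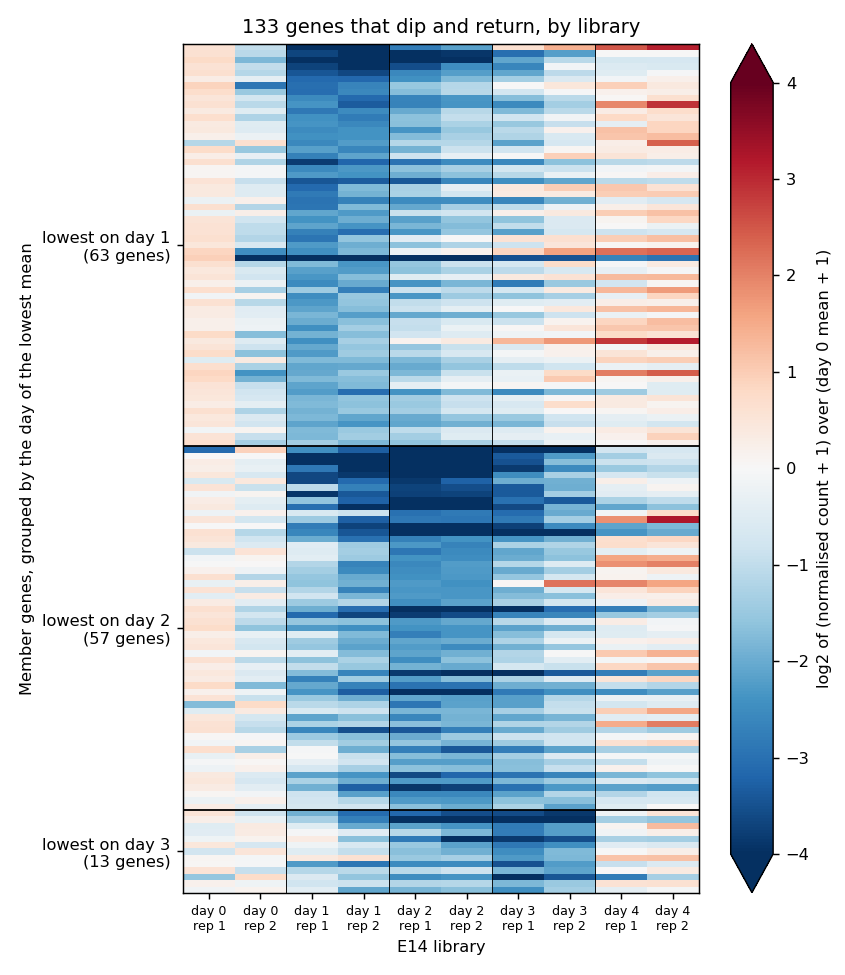
Levels of the 133 members (rows, grouped by the day of the lowest mean) in the 10 E14 libraries (columns), as log2 of the normalised count plus 1 over the day 0 mean plus 1. The columns of days 1 and 2 are low for most genes, day 3 replicate 2 is nearer to the day 0 level than day 3 replicate 1, and the row blocks hold 63, 57 and 13 genes.

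The deepest dip among members that rest on no single library was that of the actin gene Acta1, at 31.3 times. Of the 20 genes of the SRF and YAP target list with both levels at or above 200, 11 were members: Acta1, Acta2, Tagln, Tagln2, Cnn2, Tpm1, Cyr61, Lats2, Axl, Anxa3 and Thbs1. Of the 11, 4 rest on 1 library of some day, 2 of them on 1 day 0 library. Stretches before the start of 7 of the 11 genes that hold an SRF or TEAD motif are printed first, since the choice of the list rests on those factors. They come from the RefSeq windows of the mouse build GRCm38.p6, from 250 bases before to 50 after each gene's start, and are written 5′ to 3′ along the gene. The SRF site, the CArG box, was searched only in its strict form, CC and GG around a fixed run of A or T. Looser SRF sites are thus not marked. Capitals mark a strict CArG box (in Acta1 and Cnn2) and GGAATG or its reverse complement (the TEAD motif, in all but Cnn2). They lie at chr8:123894786-123894878 (Acta1, minus strand), chr19:34255484-34255549 (Acta2, minus), chr7:25788931-25788983 (Axl, minus), chr10:79988514-79988583 (Cnn2, plus), chr3:145650053-145650118 (Cyr61, named Ccn1 in RefSeq, minus), chr1:172500098-172500201 (Tagln2, plus) and chr9:67049234-67049299 (Tpm1, minus).
Acta1: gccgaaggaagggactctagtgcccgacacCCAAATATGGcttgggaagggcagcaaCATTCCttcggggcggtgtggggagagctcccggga
Acta2: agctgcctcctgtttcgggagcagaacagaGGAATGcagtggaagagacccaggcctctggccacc
Axl: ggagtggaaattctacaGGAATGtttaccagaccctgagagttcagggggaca
Cnn2: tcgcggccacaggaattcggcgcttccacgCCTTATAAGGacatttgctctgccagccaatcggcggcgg
Cyr61: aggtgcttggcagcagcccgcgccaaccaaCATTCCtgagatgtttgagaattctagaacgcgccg
Tagln2: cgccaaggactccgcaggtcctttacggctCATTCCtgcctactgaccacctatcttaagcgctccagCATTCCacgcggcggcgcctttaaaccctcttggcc
Tpm1: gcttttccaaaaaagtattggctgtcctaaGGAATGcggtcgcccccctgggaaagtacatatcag

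A window was matched for 96 of the 133 members (119 windows, 6 genes through an older symbol) and for 8 of these 11 genes. The TEAD motif was in 7 of the 8, the exception being Cnn2. In Lats2, whose stretch is not printed, it lay after the gene's start. Over all members, 22.7% of windows held GGAATG on either strand, against 11.8% of the windows of the other genes with both levels and 14.7% of all 32851 windows. A CArG box was in 6.72% of the members' windows, against 1.22% and 1.63%. It was found in Acta1, Cited1, Cnn2, Fhl2, Glipr2, Igf2 and Myadm. Members of the SRF and YAP list, chosen for these factors, are part of both shares. They gave 7 of the 27 members' windows with the TEAD motif and 2 of the 8 with a CArG box. The AP-1 motif TGANTCA was in 9.24% of members' windows, against 4.33% of those of other genes with both levels and 7.81% of all. Shares were 2.52%, 2.27% and 3.73% for the TCF motif CTTTGAT, 4.20%, 6.39% and 8.30% for the STAT motif TTCNNNGAA, and 69.7%, 66.6% and 35.7% for the SP1 motif GGGCGG. The STAT and TEAD strings can share letters. A match describes these letters only, and the motifs were chosen after the members were known.

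Acta1, skeletal muscle actin, stood at 1245 and 775 on day 0, 31.9 and 31.9 on day 1, 13.7 and 20.4 on day 2, 89.6 and 312 on day 3, and 562 and 569 on day 4. Day 2 was thus the lowest in both replicates, and the 2 libraries of day 3 lay far apart. Tagln, which encodes the actin-binding protein transgelin, stood at 8891 and 4172, then 526 and 452, 279 and 350.2, 1159 and 2677, and 4094 and 3539.8. Cyr61, a secreted YAP target that binds integrins, stood at 9749.7 and 1648 on day 0, 339 and 188 on day 1, 218 and 324 on day 2, 1343 and 2691 on day 3, and 3515 and 3549.6 on day 4. In both genes the libraries of days 1 and 2 were below all others.

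Tpm1, a tropomyosin that runs along actin filaments, had a shallower dip from 22999.5 and 10981 on day 0 to 3986 and 4306 on day 2, with 19218 and 20568 on day 4. Its day 0 replicate 2 alone was under 3 times the lowest mean. Thbs1, the matrix protein thrombospondin, had means of 4679 on day 0, 149.8 on day 2 and 1311 on day 4, so that day 4 remained at 0.280 of day 0. Acta2, smooth muscle actin, came back least of the list: its libraries held 2894 and 1465 on day 0, 154 and 56.9 on day 2, and 322 and 494 on day 4. Reads of Acta1 and Acta2 can be shared between these near-identical coding sequences, so the split between them is uncertain. Within the list 9 of the 11 members were lowest on day 2 and 2 on day 1. Day 4 was above day 0 in 3 of the 11, namely Tpm1, Lats2 (a kinase that restrains YAP) and Axl (a receptor tyrosine kinase).

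Beyond the list, 18 members were grouped under actin cytoskeleton and contraction, a grouping by role made after the values were seen. Synpo2l, a muscle actin-binding protein, stood at 406 and 393 on day 0, 4.89 and 6.22 on day 2, and 156 and 266 on day 4. Both day 4 libraries thus lay far above those of day 2. Day 4 replicate 1 alone was below the level limit of the rule, so the gene's place in the set rests on replicate 2. Parva, the integrin-linked adaptor parvin, had means of 1001, 113, 238, 529.5 and 1042 over days 0 to 4, and its libraries of each day lay within 2 times of each other. Cald1 (caldesmon) and Tgfb1i1 (the focal adhesion protein Hic-5) were also members. Tgfb1i1 overshot, with 262 and 265 on day 0 and 944 and 1065 on day 4. Of the 18, 12 were lowest on day 2, 6 on day 1 and none on day 3.

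**Figure D2:**
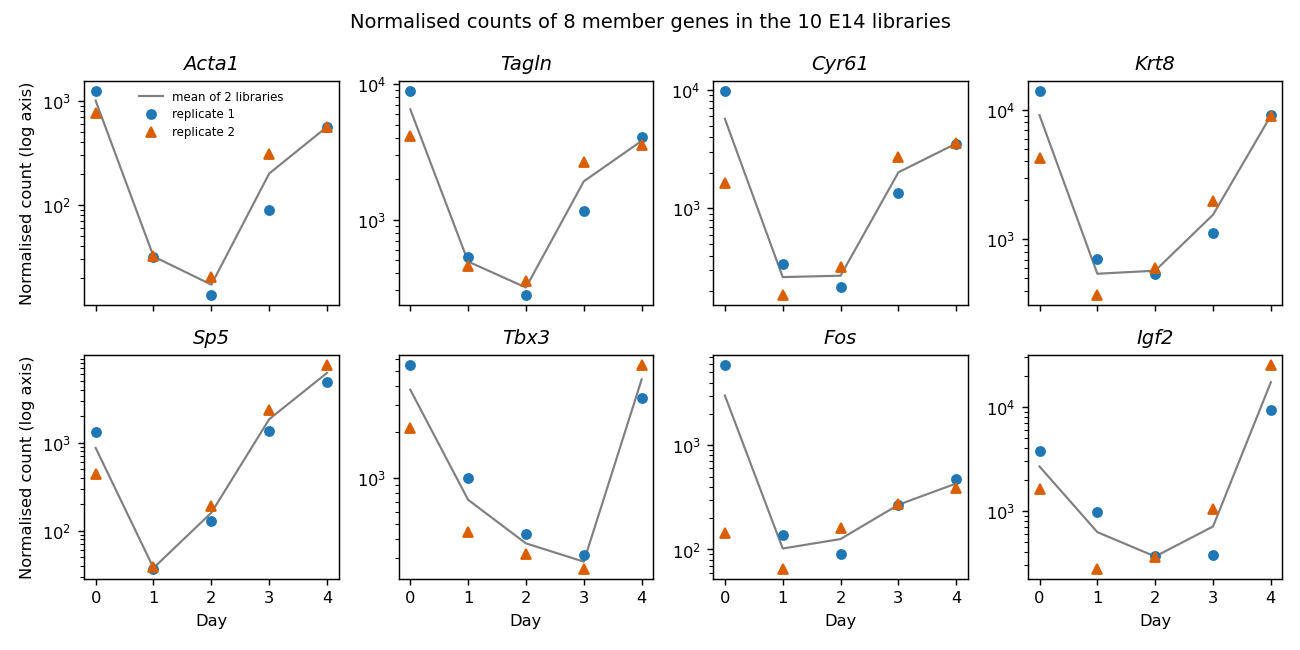
Normalised counts (log axis) of 8 members by day, with a marker for each of the 2 libraries and a line through their mean. The 2 libraries of day 0 lie apart in most panels, by 40.5 times in Fos and by 1.60 times in Acta1.

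Keratins and nestin, the building blocks of intermediate filaments, were all lowest on day 1. Krt8, which pairs with Krt18 in simple epithelia, stood at 13918 and 4261 on day 0, 712 and 375 on day 1, 542 and 605 on day 2, 1129 and 1972 on day 3, and 9084 and 8963 on day 4. Krt18 stood at 13732 and 4072, then 824 and 720.2, 1500.3 and 1937, 2113 and 4264, and 6376 and 8614. The partners thus shared the day 0 difference between libraries, with ratios of 3.27 and 3.37. Both have processed pseudogenes in the genome that can share reads. Krt19 had means of 1140.2, 208, 308, 906 and 2329.5. Of 13 genes of the simple epithelium list with both levels, 4 were members, the remaining member being the tight junction gene Cldn3. Its day 0 libraries held 1141 and 178, and its return is highest on day 3, with 539 and 1356. Nes, the nestin of neural progenitors, was low only on day 1, at 538 and 813, against 4255 and 2773 on day 0, 1978 and 2809 on day 2 and 5046 and 4106 on day 4.

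The 4 immediate early members had some of the widest differences between the day 0 libraries, and 2 of them rested on replicate 1. Fos, a subunit of the AP-1 factor, stood at 5859.9 and 144 on day 0, 139 and 65.5 on day 1, 90.0 and 162 on day 2, 266 and 271 on day 3, and 469 and 390.3 on day 4. The 40.5-fold ratio between its day 0 libraries was the highest among all 9695 genes with both levels. Jun, its partner, held 2388 and 511 on day 0, 319.6 and 235 on day 1, and 1837 and 1783 on day 4. Neither met the rule with day 0 replicate 2 alone. Junb (5216 and 1583 on day 0) and the stress-induced factor Atf3 (862 and 239.8) did, with day 2 and day 1 as their lowest days. These were 4 of the 19 genes of the immediate early list with both levels, and all 4 were higher in replicate 1 on day 0 and in replicate 2 on day 3. Hes1, a Notch target that also rested on day 0 replicate 1, held 2745 and 494 on day 0 and 438 and 497 on day 1, and Fosl2, another AP-1 subunit, held 926 and 499 and then 81.0 and 207.

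Extracellular matrix genes and their modifiers made up 18 members. Lama1, a laminin chain of the basement membrane, stood at 1937 and 2670.1 on day 0, 299.8 and 356 on day 1, 405 and 409.8 on day 2, 374 and 604 on day 3, and 1679.9 and 1432 on day 4. Col4a2, a basement membrane collagen chain, had means of 1305, 245, 458, 706 and 2919.8. Both met the rule with any single library, and they were 2 of the 12 genes of the matrix list with both levels. Serpinh1, the collagen chaperone, had its lowest mean on day 1 at 1006, against 4448 and 6384 at the ends. Of the 18, 11 were lowest on day 1 and all 18 were higher in replicate 2 than in replicate 1 on day 3.

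The fibrillar collagens Col1a1 and Col1a2 were members and are also fibroblast markers. Col1a2 stood at 391 and 217 on day 0, 58.6 and 50.3 on day 1, and 239 and 548 on day 4, and Col1a1 at 143 and 487, 51.7 and 65.5, and 382 and 1644. The fibroblast marker list of 7 genes, these 2 included, summed to 24.3 and 28.9 CPM on day 0, 15.5 and 14.2 on day 1, 30.8 and 34.2 on day 2, 24.6 and 35.6 on day 3, and 33.8 and 84.8 on day 4. Of its other markers, Lum was at 0 in all 10 time course libraries, Postn and Col3a1 stayed under 1 CPM and Dcn lay between 0.0371 and 1.35 CPM. Thy1 lay between 5.78 and 24.1 CPM and was highest on day 2. The part of fibroblast content in the collagen values was not tested.

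Among the 13 secreted ligands, Csf1, the macrophage growth factor, had the deepest dip, from 347 and 414 on day 0 to 25.0 and 35.1 on day 1 and 27.4 and 28.4 on day 2, and back to 275 and 298. Its libraries lay close together on every day but day 3, with 36.2 and 147. Bmp4, a ligand that induces mesoderm, had its lowest mean on day 3, with 752 and 1361, 761 and 259, 241 and 205, 151 and 230.1, and 1129.8 and 2558. Kitl, the ligand of Kit, was lowest on day 3 as well, at 45.8 and 62.6 against 233 and 211 on day 0 and 494 and 498 on day 4. Bmp7, by contrast, rests on a single library, with 529 and 54.6 on day 0, 69.8 and 103 on day 1 and 1198 and 1558 on day 4. Hbegf, an EGF receptor ligand, and Fgfbp1, which frees FGFs from the matrix, returned only to 0.221 and 0.214 of their day 0 means.

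Receptors, adhesion and surface proteins were the largest role group, with 25 members and dips of 3.06 to 6.95 times. The integrin chains Itga5 and Itga9, the guidance receptors Nrp2 and Epha4 and the LIF receptor Lifr belonged to it. Lifr held 2585 and 3507 on day 0, 1807 and 1389 on day 1, 627 and 626 on day 2, 975 and 961 on day 3 and 1932 and 1905 on day 4. With Gbx2 it made 2 of the 11 genes of the LIF and Stat3 list with both levels. Nrp2, a semaphorin and VEGF coreceptor, held 1332 and 1556 on day 0, 275 and 255 on day 2 and 4279 and 3932 on day 4. In this group 14 of 25 members were higher in day 0 replicate 1, against 16 of 18 of the actin group. The myelin protein gene Pmp22 ended highest in the group relative to day 0, with means of 446 on day 0, 64.6 on day 1 and 2512 on day 4.

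Transcription factors gave 16 members. Sp5, a direct Wnt target, stood at 1309 and 438 on day 0, 37.0 and 38.3 on day 1, 128 and 192 on day 2, 1372 and 2332 on day 3 and 4852 and 7618 on day 4. It was the sole member among 7 genes of the Wnt list with both levels, and its day 3 mean was already 47.9 times the lowest, the highest such ratio of any member. Tbx3, a naive pluripotency factor that also acts in early endoderm and mesoderm, reached its lowest level later, on day 3, with 5429.6 and 2107, 994 and 447, 431 and 318, 313 and 256, and 3348 and 5440.1. It was 1 of 13 naive pluripotency genes with both levels. Zeb1, a repressor of epithelial genes, held 306 and 401 on day 0, 231 and 196 on day 1, 44.0 and 48.9 on day 2, 41.0 and 87.4 on day 3 and 328 and 586 on day 4. Gbx2, a LIF-responsive homeobox gene, had its day 0 difference the other way round, with 596 and 2887, then 311 and 339 on day 2, 109.7 and 162 on day 3 and 252 and 693 on day 4. Tfap2c, a factor of trophoblast and germ cells, returned to 823 and 958 from 241 and 323 on day 2, after 3850.3 and 2022 on day 0. Tead4, the partner of YAP, held 362 and 613, 99.8 and 96.9 on day 2, and 587 and 559.

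Imprinted genes gave 3 of the 11 with both levels: H19 and Igf2, which neighbour each other, and Peg10, a retrotransposon-derived gene. Igf2, a growth factor, held 3737 and 1625 on day 0, 371 and 358 on day 2 and 9423 and 25273 on day 4. H19, a noncoding RNA, held 484 and 119.9, 112 and 44.7 on day 1 and 768 and 995, and Peg10 held 14139.9 and 25406, 5587 and 5543 on day 2 and 39366 and 58064. The 3 thus overshot, with day 4 at 6.47, 2.91 and 2.46 times day 0 for Igf2, H19 and Peg10. H19 rests on day 0 replicate 1 and Peg10 on day 0 replicate 2.

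S100 proteins, small calcium-binding proteins, and their partners made up 7 members. S100a10, which anchors annexin at the membrane, held 5602 and 2942 on day 0, 3107 and 1601 on day 1, 869 and 673 on day 2, 1787 and 1874 on day 3 and 6885 and 5979 on day 4. S100a6 and S100a11 were also lowest on day 2, and Ahnak, a giant scaffold bound by S100a10, had means of 6372, 611, 179, 772 and 2551. All 7 were higher in day 0 replicate 1. Chromatin genes were few: H2afy and H2afy2, which encode macroH2A histones, and Smarcd3, a subunit of a BAF remodelling complex, at dips of 3.82 to 3.93 times. All 3 rest on 1 library of some day. So did 16 of the 25 receptor and surface members, 10 of 18 actin members and 9 of 16 transcription factors. The matrix group had 9 of 18 such members, the secreted ligands 6 of 13, the S100 group 2 of 7 and the intermediate filaments 0 of 4.

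None of the members came from the lists of p53 targets (19 genes with both levels), Nodal and TGF-beta targets (8), BMP targets (6), stress response (13), primed epiblast (9), streak and mesoderm (3), primitive and visceral endoderm (4), the two-cell-like state (2), cholesterol synthesis (12), hypoxia and glycolysis (10) or replication histones (2). The blood and endothelium list had no gene with both levels. Other lists gave few: the neuroectoderm list 2 of 4 (Nes and Ncam1), the germ cell list 2 of 8 (Tfap2c and the membrane protein Ifitm1), the trophoblast list 1 of 3 (Tfap2c) and the fibroblast list 2 of 3 (Col1a1 and Col1a2). These are counts, with no test.

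The 2 libraries of day 0 differed in these genes. Replicate 1 was higher than replicate 2 in 103 of the 133 members (77.4%), against 51.0% of the 9695 genes with both levels, and the median ratio was 1.90 against 1.01. Replicate 1 was over 2 times replicate 2 in 63 members and over 3 times in 34, while replicate 2 was over 2 times replicate 1 in 7. The rule favours genes with a high value in either day 0 library, so these ratios are a description. For 61 members the rule was met only with the help of 1 day 0 library: 48 failed it with replicate 2 alone and 13 with replicate 1 alone. The widest ratios in which replicate 1 was higher were those of Fos, S100a1 (389 and 27.3), Adssl1 (432 and 41.6) and Bmp7. Spink3, a protease inhibitor, had the deepest dip of all members at 32.8 times, but its day 0 libraries held 40.6 and 672. Ntn1, the guidance cue netrin, held 787 and 4502. The summed ES cell markers given above differed little between these 2 libraries, but single genes of the sum differed. Pou5f1 held 1270 CPM in replicate 1 and 1428 in replicate 2, and Zfp42 643 and 652. Esrrb held 804 and 586, Klf4 293 and 223, Tbx3 162 and 65.8 and Nanog 51.3 and 41.0. Summed neuroectoderm markers were 22.3 CPM in replicate 1 and 46.3 in replicate 2, mostly Pax6 at 20.5 and 41.5. The neuroectoderm list members Nes and Ncam1 were higher in replicate 1. Summed two-cell-like markers were 42.2 and 83.0. Reads of Rn45s, a ribosomal RNA precursor, were 0.529% of replicate 1 and 0.266% of replicate 2, against 0.169% to 0.293% in the other time course libraries. The part of these in the day 0 difference was not tested.

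Between the libraries of day 3 the difference ran the other way and was not used by the rule in the 120 members whose lowest day was day 1 or 2. Replicate 2 was higher in 60 of the 63 members lowest on day 1 and in 53 of the 57 lowest on day 2. Over all 133 members, replicate 2 was higher in 124 (93.2%), against 48.8% of genes with both levels. The median ratio over all members was 1.57 against 0.995, and 33 members were over 2 times. Tinagl1, a matrix protein, held 87.7 and 502 on day 3, the widest such ratio. Zhx1 was the member furthest the other way, with 287 and 156. Relative to the day 0 mean, the median member was at -1.69 on the log2 scale in day 3 replicate 1 and at -0.93 in replicate 2, nearer to the day 4 libraries at -0.02 and 0.17. Summed streak and mesoderm markers were also higher in day 3 replicate 2, at 666 CPM against 451 in replicate 1, and their part in this difference was not tested.

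**Figure D3:**
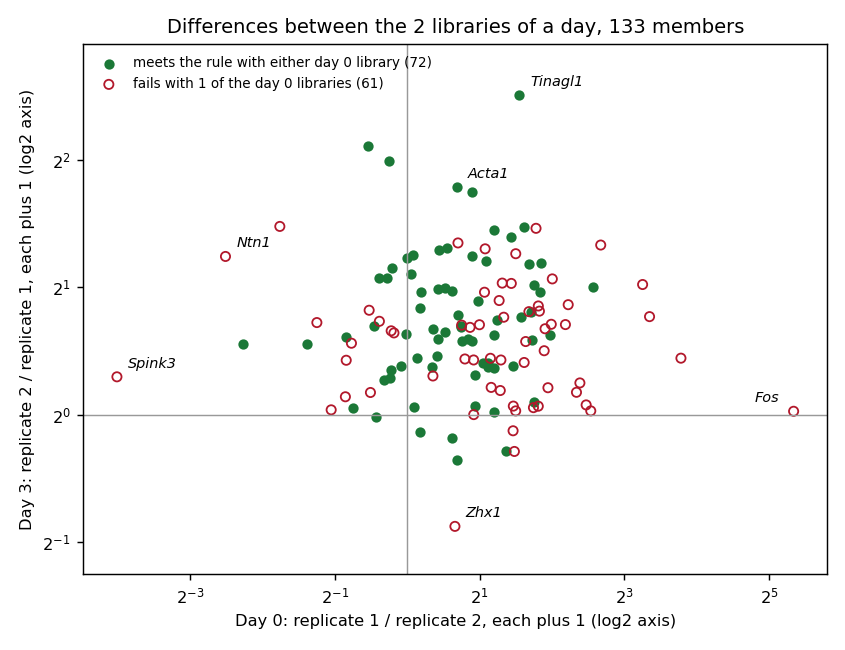
Ratio of the 2 day 0 libraries (replicate 1 over replicate 2, x axis) against the ratio of the 2 day 3 libraries (replicate 2 over replicate 1, y axis) for the 133 members, each value plus 1, on log2 axes. Most points lie above 1 on both axes, and the 61 open circles are members that fail the rule with 1 of the day 0 libraries.

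With the rule applied to single replicates, replicate 1 alone chose 224 genes, of which 62 (27.7%) also met it in replicate 2, where 1.07% of all genes with both levels in that replicate did. Replicate 2 alone chose 103, of which the same 62 (60.2%) met it in replicate 1, where 2.33% did. These are the libraries that chose the members, and the labels do not say whether they are separate cultures. The shares are therefore a description and not a test of the set. Every library of days 0 and 4 was at least 3 times every library of the lowest day in 54 members. The number chosen was 93 without day 0 replicate 1, and 171 without day 0 replicate 2 or without day 1 replicate 2. A total of 57 members rested on no single library of any day. The members nearest inside the limit were Cst3 (3.00 times), Rhob (3.01), Htra1 (3.02) and Zhx1 (3.02). Just outside lay Colec12 (2.99), the YAP regulator Amotl2 (2.98), the MHC light chain B2m (2.96) and the urokinase receptor Plaur (2.94).

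The genotype table was not used to choose the genes and asks how they stood in day 4 EBs of other lines, with and without the p53 family. All 133 members passed the filter on low counts there. By limma with Benjamini-Hochberg adjusted p under 0.05 over 14840 genes, 7 members were higher and 5 lower in p53 family loss. Of these 12, 7 rest on 1 library of some day for their place in the set. Gbp1, Cmklr1, Gad1, Sgce and H19, which rest on 1 day 0 library, are among them. The others are Gbx2, which fails the rule with day 4 replicate 1 alone, and Acta2, which fails it with day 2 replicate 1 alone. Over all genes tested, 0.566% were called higher and 0.674% lower, 1.24% in all, against 9.02% of the members. Among the 9695 genes with both levels in the time course, 0.217% were called higher and 0.547% lower, 0.763% in all. The median log2 fold change of the members was -0.04, against 0.01 over all genes. Of the 133, 112 lay within 1 log2 unit of no change, 59 above 0 and 74 below. At an unadjusted p under 0.05, 20 members were higher and 23 lower, against 7.12% and 6.80% of all genes tested. The 2 libraries of a genotype did not overlap those of the other in 73 members, 54.9% of them, where 43.1% of all genes and 40.1% of those with both levels showed the same. DESeq2 on the recovered reads called 11 members higher and 13 lower, and 4.43% of all genes. Leaving out 1 library moved these counts: without Trp53+/+ replicate 1 it was 16 members higher and 17 lower (24.8% of members against 10.6% of all genes), and without Trp53+/+ replicate 2 it was 15 and 23 (28.6% against 7.25%). Without loss replicate 1 or loss replicate 2 it was 10 in all in each case, 7.52% of members against 1.37% and 1.44% of all genes.

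Members higher in p53 family loss came from several role groups. Gbx2 stood at 99.9 and 122 in the Trp53+/+ libraries and at 667 and 641 in the loss libraries, a log2 fold change of 2.55 (SE 0.22, adjusted p = 0.0105). Col1a2 stood at 261 and 154 against 1258 and 867 (2.38, SE 0.32, adjusted p = 0.0304). Zeb1 stood at 146 and 91.5 against 586 and 517 (2.24, SE 0.28, adjusted p = 0.0249). These were each higher in both loss libraries than in both others. H19 stood at 2440.3 and 1430.2 against 7312 and 6388 (1.87, SE 0.26, adjusted p = 0.0356). The actin genes Acta2, at 243 and 314 against 929.8 and 923 (1.74, SE 0.21, adjusted p = 0.0212), and Acta1, at 255 and 291 against 678 and 630.5 (1.26, SE 0.19, adjusted p = 0.0453), were both called. Sgce, a sarcoglycan of the cell membrane and the imprinted neighbour of Peg10, stood at 354 and 367 against 849 and 889 (1.27, SE 0.18, adjusted p = 0.0345). Acta1 and Sgce were no longer called without either loss library, with adjusted p up to 0.156 and 0.118. Peg10 itself was 24599.8 and 8994 against 58815 and 37056, with a log2 fold change of 1.65 (SE 0.48) that was not called at an adjusted p of 0.196.

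Of the 5 members lower in the loss line, Gbp1 fell furthest. Gbp1, an interferon-induced GTPase named Gbp2b in RefSeq, stood at 306 and 200.3 in the Trp53+/+ libraries and at 0 and 0.860 in the loss libraries (log2 fold change -7.51, SE 0.51, adjusted p = 0.00423). In reads this was 503 against 1, a ratio of 664 after scaling by the library factors, with a 95% interval of 119 to 26289 that covers counting error only. The fitted log2 value depends on the pseudocount and tool and ran from -9.33 to -4.92 over the alternatives. Its paralog Gbp2, which can share reads with it, stood at 901 and 650.1 against 747 and 672. Sp5 was at 4358 and 5658 against 893 and 893 (-2.47, SE 0.18, adjusted p = 0.00470). Cmklr1, the chemerin receptor, stood at 136 and 111 against 28.8 and 30.1 (-2.02, SE 0.31, adjusted p = 0.0441). Gad1, which makes the transmitter GABA, stood at 192 and 212 against 54.0 and 61.9 (-1.79, SE 0.27, adjusted p = 0.0420). S100a10 stood at 3149 and 3533 against 1543 and 1702 (-1.04, SE 0.16, adjusted p = 0.0425). Gad1 lost its call without loss replicate 1 (adjusted p = 0.0593), and S100a10 without either loss library (up to 0.192).

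**Figure D4:**
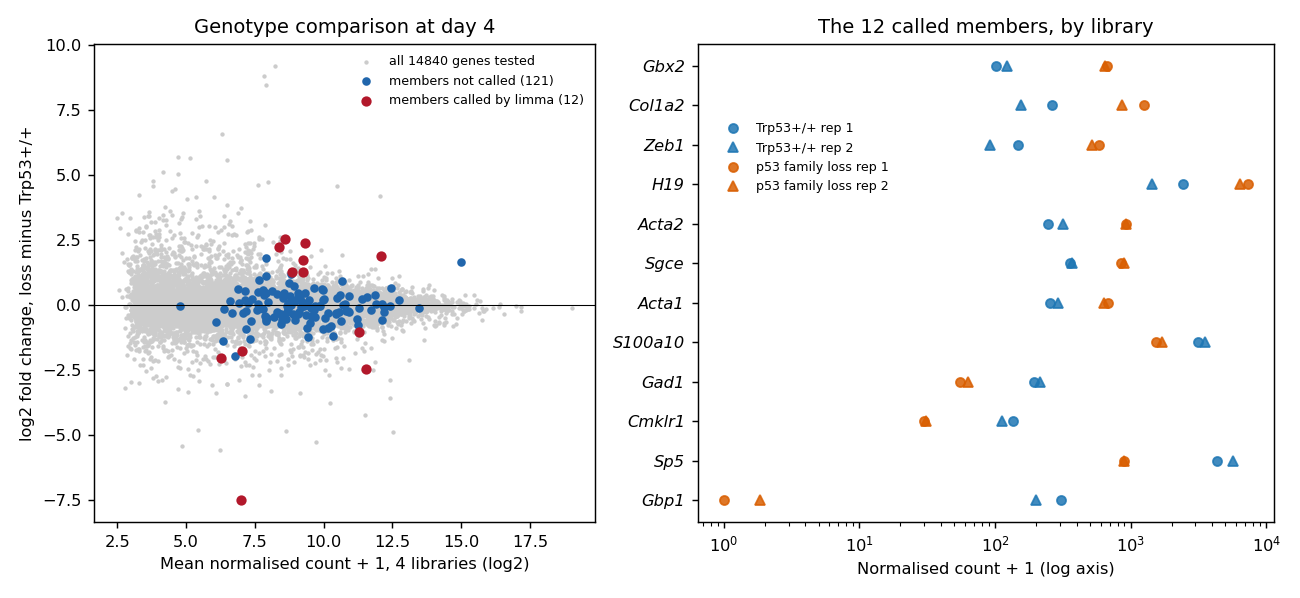
Left, log2 fold change of p53 family loss minus Trp53+/+ against mean normalised count for all 14840 genes tested (grey), the 121 members not called (blue) and the 12 called (red). Right, normalised counts plus 1 of the 12 called members in each of the 4 libraries on a log axis, where the 2 genotypes do not overlap in any of them.

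Of 23 tested genes of the SRF and YAP list, 2 were called higher in loss (Acta1 and Acta2, both members) and none lower, where 0.566% of all genes were called higher. The median log2 fold change was 0.18 over the list and 0.29 over its 11 members, against 0.01 over all genes. Tagln stood at 2382 and 3180.1 against 3217 and 3528, and Tpm1 at 11579 and 11558 against 10737 and 10858, with adjusted p of 0.593 and 0.840. Cyr61 was at 3164 and 3985 against 2699 and 3649. Thbs1, at 1239.7 and 1037 against 2125 and 2164, missed the threshold at an adjusted p of 0.0690 by limma. Krt8 stood at 6477 and 4739 against 5702 and 5088, and no gene of the keratin list was called. None of the 4 immediate early members was called. Fos stood at 124 and 346 against 65.0 and 109, and Junb at 749 and 1856 against 789 and 1139, so that the Trp53+/+ libraries lay far apart in both genes. Of other members that just missed, chosen after their values were seen, Cdc42ep1, an effector of the actin regulator Cdc42, stood at 261 and 289 against 629 and 620.1 (adjusted p = 0.0513), and the potassium channel subunit Kcns3 at 204 and 146 against 51.0 and 37.8 (adjusted p = 0.0559).

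Summed markers of several cell types differed between the genotypes, given here without a test. Summed neuroectoderm markers (4 genes) were 5.26 and 6.12 CPM in the Trp53+/+ libraries and 149 and 126 in the loss libraries, and summed streak and mesoderm markers (5 genes) were 1217 and 1308 against 278 and 236. The fibroblast list of 7 genes, of which Col1a2 is one, summed to 47.1 and 40.3 against 112 and 89.5, with Lum at 0 in 1 library of each genotype. Among the neural markers Sox1 held most of the sum. Blood and endothelium markers summed to 8.14 and 7.01 against 37.6 and 20.5, and two-cell-like markers to 0.937 and 0.157 against 8.52 and 4.74. Primitive and visceral endoderm markers summed to 258 and 122 against 93.6 and 90.8, and ES cell markers to 809.9 and 1232 against 533 and 697. In the endoderm sum Gata4, Gata6 and Sox17 were lower in both loss libraries. Dab2 (37.5 and 26.5 against 46.4 and 45.9) and Sox7 were higher, Cubn overlapped, and Afp, Ttr and Amn were at most 1.66 CPM. Pou5f1 held most of the ES cell sum, at 635 and 1113 against 412 and 601. Nanog, Klf4 and Tbx3 were also lower in both loss libraries, while Zfp42 and Esrrb overlapped between the genotypes. Trophoblast markers summed to 13.5 and 12.9 against 12.8 and 10.6. The longer blood and endothelium list of 12 genes had a median log2 fold change of 0.57, with 1 gene called higher and none lower. Its genes did not all go the same way, with Etv2 at -1.27 and Kdr at -1.13. The part of these cell types in the values of Gbx2, Zeb1, Sp5 and Col1a2 was not tested.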

How the data were processed

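RNA libraries (TruSeq RNA v2, per the labels' protocols) were sequenced with paired ends. The submitters' processing notes name the build mm9 and, without role or order, the tools DESeq2, HTSeq 0.5.4, SAMtools 0.1.19, Bowtie2 and FastQC 0.11.3. The authors deposited 2 tables of 23284 genes named by symbol, whose values are a signal, that is read counts scaled by a library factor. All values (100%) were whole multiples of the library's smallest step within 1e-06, so whole reads were recovered. Reads per library are given with the results. ChIP samples were not analysed here.

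The members, gene lists, role groups and motifs were chosen with earlier results of these data known. A member rests on 1 library if it fails the rule when that day's mean is replaced by either library alone. The genotype table was fitted as a whole in R 4.3.3 by limma 3.58.1 on log2(signal + 1), with a mean-variance trend, so fold changes of low genes are understated. Low genes were removed by filterByExpr of edgeR, applied to the recovered reads. The fit had 2 residual and 4.33 prior degrees of freedom, and p-values were adjusted over 14840 genes. Tested on simulated data with 14631 genes, the fit recovered 49.2% of 65 genes changed 2-fold, 92.2% of 64 changed 4-fold and 98.5% of 65 changed 8-fold, with 16 false calls among 14437 unchanged genes. The simulated libraries were drawn independently of each other, without the correlated replicate differences of the real libraries that are described below.

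Named genes are the 12 deepest dips that rest on no single library, members called between genotypes (up to 8 each way), members in a gene list, the 4 nearest on each side of the limit and the 6 widest day 0 ratios. Other members named were chosen after their values were seen. Alternatives were edgeR 4.0.16 and DESeq2 1.42.0 on recovered reads, other pseudocounts, no filter, TMM scaling, other limits of the rule, a replicate block, and leaving out each library. Promoters and symbols came from RefSeq tables, and motifs were searched with Python 3.11.15. A mitochondrial list had no gene in the tables. Some items are not reported here.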

Additional observations from a re-analysis of the deposited data

How the results depend on the processing

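The number of members depended on the limits of the rule and on single libraries: 333 at a 2-fold dip, 78 at 4-fold, 224 with replicate 1 libraries alone, 54 when every library had to be 3-fold apart, and 93 to 171 with 1 library left out. It stayed within 1.5 times of 133 under the other level limits, in CPM and with nothing added.

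Between genotypes, edgeR on recovered reads, pseudocounts of 0.5 and 8, no filter and TMM scaling kept every count within 1.5 times. DESeq2 called 283 genes higher and 374 lower, of which 11 and 13 were members. With 1 library left out, the lone library is assumed to vary like the other genotype. All genes called then ranged from 72 to 979 higher and from 121 to 634 lower, and members from 5 to 16 higher and from 4 to 23 lower. Among members that rest on no single day 0 library, 2 were called lower, and among those that rest on none of any day 3 were higher and 2 lower. No named gene changed direction with a call under these alternatives.

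The labels give both genotypes the replicate numbers 1 and 2. The replicate 1 minus replicate 2 differences of the genotypes correlated at 0.57 (Pearson) over 14840 genes, which are not independent, and the share of Rn45s reads went with the number, at 0.632% and 0.848% in replicate 1 of Trp53+/+ and loss and 4.30% and 2.91% in replicate 2. With only 2 pairs and no stated batch the numbers were not taken as pairing. With a replicate block, 1548 genes were called higher and 1425 lower, with 25 and 28 of the members, that is 39.8% of members against 20.0% of all genes.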
